A study of Mus musculus with 8 samples.

Results

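Desmosomes are spot-like junctions that fasten neighbouring epithelial cells together and tie each cell's intermediate filaments to the membrane. Desmosomal cadherins (desmogleins and desmocollins) bridge the gap between cells, armadillo proteins (plakoglobin and the plakophilins) gather on their tails, and desmoplakin links that plaque to keratin. In the male reproductive tract they join the cells of the epididymal duct epithelium, and mesothelial cells also carry them. Here 10 genes were followed: Dsp, Jup, Pkp1, Pkp2, Pkp3, Pkp4, Dsg2, Dsc2, Dsc3 and Perp, each found by its mouse Ensembl identifier among the 46517 genes counted. The set was drawn up by function around Dsp, which was chosen by its lower level in the knockout group of these same libraries, so all values for knockout against control are a description and carry no test. Of the 10 genes, 9 passed the filter on low counts and Pkp1 did not.

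The samples were epididymal ducts, the derivative of the Wolffian duct, dissected from mouse embryos at E18.5, with 4 libraries in each group. Control embryos were Ptk7+/flox:T-Cretg:mT/mG (libraries 1, 3, 4 and 6), and conditional knockout (cKO) embryos were Ptk7Xst87/flox:T-Cretg:mT/mG (libraries 1, 2, 4 and 5). Both groups thus carried a floxed Ptk7 allele, T-Cre (a Cre recombinase under sequences of the mesodermal gene T) and the mT/mG membrane reporter, and they differed in whether the other Ptk7 allele was wild type or the disrupted allele Xst87. Ptk7 encodes a transmembrane pseudokinase of planar cell polarity, and its floxed allele is recombined only in cells with T-Cre activity or their descendants. Whether the libraries came from separate embryos is not stated in the labels, so the spread between them may be partly technical. Total counts were 24807970 to 29590547 per library. The library labelled Ptk7 cKO 5 went against its label: it had 194 CPM (counts scaled to a common library size) of Ptk7, against 112 to 313 in controls and 7.32 to 12.5 in the other cKO libraries. Fold changes of the tested members and counts for most lists are therefore also given without it.

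Desmoplakin (Dsp, ENSMUSG00000054889; GRCm38 chromosome 13, 38151328 to 38198577, plus strand), the plakin that anchors keratin, was chosen for its lower level in cKO. With all 8 libraries its log2 fold change was the largest in size among the tested members, but not in every fit. That of Perp was larger without cKO 1 (-0.55 against -0.45 for Dsp) and without control 1 (-0.47 against -0.43). The level of Dsp was 50.6, 49.1, 49.1 and 45.5 CPM in controls 1, 3, 4 and 6. In the libraries labelled Ptk7 cKO 1, 2, 4 and 5 it was 35.4, 40.7, 29.0 and 37.1 CPM. Every cKO library lay below every control, as in 3.11% of all genes tested. The library cKO 5, with its control level of Ptk7, lay with the other cKO libraries. The means were 48.6 ± 2.20 CPM in control and 35.6 ± 4.91 in cKO (SD, n = 4 each), so the cKO mean was 73.2% of control (log2 fold change -0.45, SE 0.10). Without cKO 5 the cKO mean was 72.2% of control (log2 fold change -0.47, SE 0.11), and without cKO 4, the lowest library, the log2 fold change was -0.36 (SE 0.08). The gene shares 465 exon bases with an antisense gene, Gm10129, that had a mean of 1.62 counts per library.

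Plakoglobin (Jup, ENSMUSG00000001552; chromosome 11, 100368958 to 100397763, minus strand), the armadillo protein that joins the cadherin tails to desmoplakin and also sits in adherens junctions, did not share this difference. It had 63.7, 64.4, 63.4 and 61.7 CPM in controls 1, 3, 4 and 6, and 62.7, 71.7, 63.6 and 72.9 CPM in cKO 1, 2, 4 and 5. The groups overlapped, with cKO 2 and cKO 5 above all controls and cKO 1 and cKO 4 among them. Its log2 fold change was 0.10 (SE 0.07), or 0.06 (SE 0.07) without cKO 5, and this sign turned in the fits restricted to libraries 1 and 4 of each group. Within each library, the ratio of Dsp to Jup in FPKM (CPM per kilobase of exon) does not depend on how libraries are scaled. It was 0.531, 0.51, 0.517 and 0.493 in controls 1, 3, 4 and 6, and 0.378, 0.38, 0.305 and 0.341 in cKO 1, 2, 4 and 5. The ratio was thus lower in each cKO library than in any control (0.513 ± 0.016 against 0.351 ± 0.036, SD, n = 4 each). Since Dsp was chosen for its lower level in cKO, a lower ratio to a gene that did not fall is part of that choice.

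For both plaque partners, the 250 bases before the RefSeq start site are shown, 5′ to 3′ on the gene's own strand (GRCm38.p6; Dsp chr13:38151044-38151293, plus; Jup chr11:100397791-100398040, minus). Capitals mark the GC box GGGCGG or its other strand CCGCCC, to which SP family factors bind.
Dsp: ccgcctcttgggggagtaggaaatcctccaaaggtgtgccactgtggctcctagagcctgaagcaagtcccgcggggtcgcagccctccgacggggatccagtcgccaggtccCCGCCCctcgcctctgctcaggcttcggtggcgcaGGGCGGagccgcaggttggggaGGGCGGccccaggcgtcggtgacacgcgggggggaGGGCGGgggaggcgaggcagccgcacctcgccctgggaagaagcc
Jup: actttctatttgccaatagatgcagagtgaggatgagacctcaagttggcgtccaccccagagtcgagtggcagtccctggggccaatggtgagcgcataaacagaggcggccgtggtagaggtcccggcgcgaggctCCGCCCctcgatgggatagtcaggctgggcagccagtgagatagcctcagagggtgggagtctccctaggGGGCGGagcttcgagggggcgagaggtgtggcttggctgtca
The Dsp window held 4 GC boxes, beginning 137, 102, 80 and 45 bases before the start, and was 72.4% G and C. The Jup window held 2, beginning 112 and 42 bases before the start, and was 62.0% G and C. At least 1 GC box stood in 32.7% of the 32851 RefSeq windows of this length, whose median G and C content was 52.4%. Both strands were also searched for the Grainyhead-like element AACCGGTT (0.116% of all windows) and for the E-box CAGGTG or CACCTG bound by Snail and Zeb factors (17.2%). Neither set of letters occurred in the windows of Dsp or Jup. Pkp4 was the other member with windows, and its first had 5 GC boxes, some overlapping. Its second had 1 E-box, but that window lies inside the span of the gene and its orientation did not match a transcript. Such matches describe letters only, and their part in the levels was not tested.

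**Figure D1:**
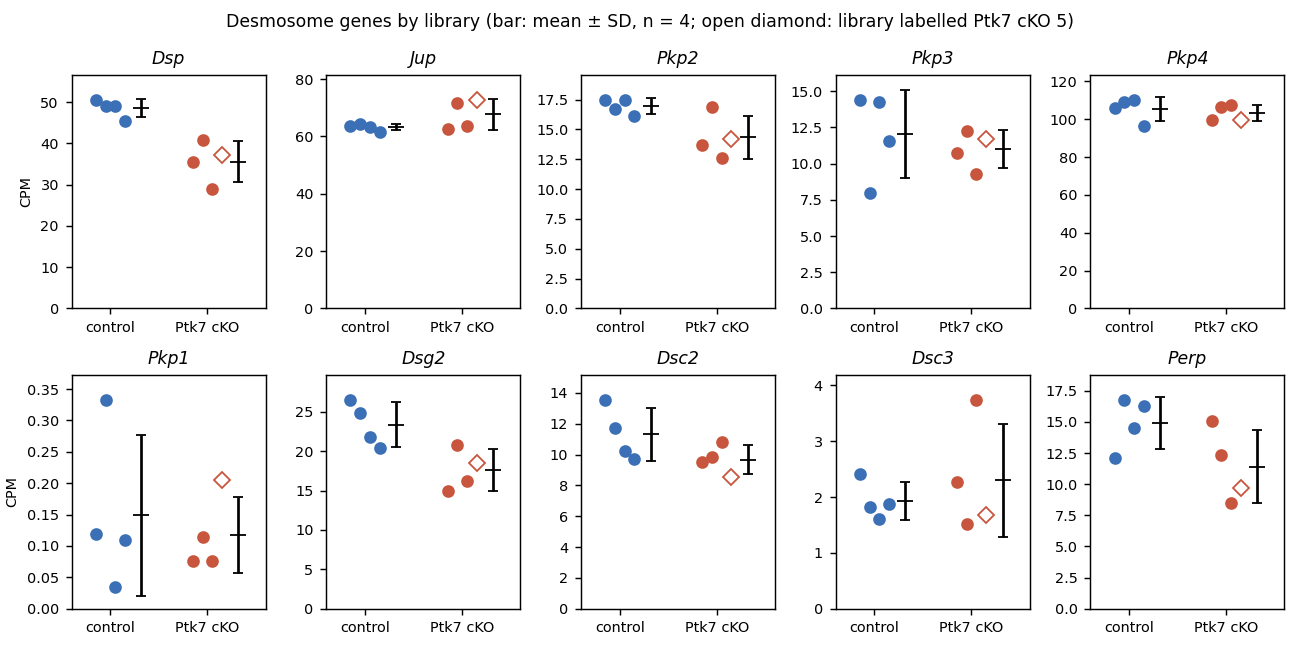
CPM (vertical axes, each from 0) of the 10 desmosome genes in 4 control libraries (blue) and 4 libraries labelled Ptk7 cKO (red; open diamond, cKO 5). Points are libraries and black bars are mean ± SD. For Dsp every cKO library (29.0 to 40.7 CPM) lies below every control (45.5 to 50.6), and in the other 9 genes the groups overlap. Of all genes tested 3.11% were lower in cKO without overlap, and Dsp was chosen for its lower level in cKO.

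The desmosomal cadherins in the duct were mainly Dsg2 and Dsc2, the desmoglein and desmocollin found in simple epithelia. The genes lie on chromosome 18. Dsg2 (ENSMUSG00000044393) had 26.5, 24.9, 21.7 and 20.4 CPM in controls 1, 3, 4 and 6, and 14.9, 20.8, 16.2 and 18.6 in cKO 1, 2, 4 and 5. The groups overlapped only in that cKO 2 was above control 6. The means were 23.4 ± 2.80 and 17.6 ± 2.61 CPM (SD, n = 4 each; log2 fold change -0.41, SE 0.12), and -0.43 (SE 0.14) without cKO 5. Dsc2 (ENSMUSG00000024331) ranged from 9.74 to 13.5 CPM in control and from 8.54 to 10.8 in cKO (log2 fold change -0.23, SE 0.13), with cKO 2 and cKO 4 inside the control range. This fold change was -0.17 (SE 0.14) without cKO 5 and -0.13 (SE 0.13) without control 1, which had the highest Dsc2 level of the 8 libraries.

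Dsc3 (ENSMUSG00000059898), a desmocollin best known from the basal layers of stratified epithelia, was low and uneven. It had 2.41, 1.83, 1.6 and 1.87 CPM in controls 1, 3, 4 and 6, and 2.26, 1.53, 3.74 and 1.68 in cKO 1, 2, 4 and 5. Only cKO 4 stood above the controls, and that library set the sign: the log2 fold change was 0.26 (SE 0.29) with it and -0.08 (SE 0.24) without it. Without cKO 5 it was 0.38 (SE 0.30). In FPKM summed over the 3 cadherins, Dsg2 made up 53.1% ± 1.17 in control and 48.5% ± 6.29 in cKO, Dsc2 40.1% ± 0.75 and 41.7% ± 2.83, and Dsc3 6.81% ± 0.73 and 9.82% ± 3.90 (SD, n = 4 each). The summed cadherin level was 4.66 to 6.23 FPKM in control and 4.03 to 4.71 in cKO. The 6 other desmosomal cadherin genes (Dsc1, Dsg1a, Dsg1b, Dsg1c, Dsg3 and Dsg4), known from skin and other stratified epithelia, reached at most 3 counts in any library, and Dsg4 had 0 in all 8.

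The plakophilins, armadillo proteins that cluster cadherins and desmoplakin in the plaque, differed widely in level. Pkp2 (ENSMUSG00000041957; chromosome 16, 16213318 to 16272712), the form of simple epithelia and heart, had 17.5, 16.7, 17.5 and 16.1 CPM in controls 1, 3, 4 and 6, and 13.7, 16.9, 12.6 and 14.2 in cKO 1, 2, 4 and 5. All cKO libraries but cKO 2 were below the controls (log2 fold change -0.24, SE 0.10, and -0.23, SE 0.12, without cKO 5). Pkp3 (ENSMUSG00000054065; chromosome 7, 141078218 to 141090510), found in most epithelia, was spread most widely among the controls of the 9 tested members (coefficient of variation 25.2%), with 14.4, 7.95, 14.3 and 11.5 CPM in controls 1, 3, 4 and 6. Control 3 was the lowest of all 8 libraries, and the cKO libraries (9.27 to 12.3 CPM) lay inside the control range (log2 fold change -0.13, SE 0.18, and -0.16, SE 0.20, without cKO 5). Single libraries moved this value: it was -0.29 (SE 0.13) without control 3, -0.03 (SE 0.19) without control 1, -0.04 (SE 0.19) without control 4 and -0.06 (SE 0.19) without cKO 4.

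Pkp4 (ENSMUSG00000026991; chromosome 2, 59160850 to 59355208), which is also found at adherens junctions, varied least of the members over the 8 libraries of both groups. It had 96.6 to 110.4 CPM in control and 99.5 to 107.4 in cKO (log2 fold change -0.03, SE 0.07, and -0.02, SE 0.08, without cKO 5), a coefficient of variation of 4.89% over the 8 libraries. Among controls alone this was 5.92%, above those of Jup (1.86%), Pkp2 (3.96%) and Dsp (4.53%). Pkp1 (ENSMUSG00000026413; chromosome 1, 135871395 to 135919207), the form of stratified epithelia, had 3, 10, 1 and 3 counts in controls 1, 3, 4 and 6, and 2, 3, 2 and 5 in cKO 1, 2, 4 and 5. These counts are too few to compare the groups.

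Perp (ENSMUSG00000019851; chromosome 10, 18845071 to 18857073), a tetraspan membrane protein needed for stable desmosomes in stratified epithelia, had 12.1, 16.8, 14.5 and 16.2 CPM in controls 1, 3, 4 and 6, and 15.1, 12.4, 8.51 and 9.69 in cKO 1, 2, 4 and 5. Only cKO 4 and cKO 5 were below the controls. The log2 fold change was -0.39 (SE 0.18), or -0.32 (SE 0.19) without cKO 5 and -0.27 (SE 0.17) without cKO 4.

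Compared per exon length, the 10 genes covered a wide range, and their order was not used in choosing them. Mean FPKM over the 8 libraries was 18.3 ± 0.90 for Pkp4, 10.2 ± 0.66 for Jup, 6.92 ± 1.58 for Perp and 4.37 ± 0.81 for Dsp (SD, n = 8). It was 3.18 ± 0.62 for Pkp3, 2.92 ± 0.35 for Pkp2, 2.48 ± 0.48 for Dsg2, 1.99 ± 0.29 for Dsc2, 0.399 ± 0.14 for Dsc3 and 0.0266 ± 0.019 for Pkp1. Plakophilin 4 and plakoglobin, the 2 members shared with adherens junctions, were thus at the top, and desmoplakin stood above each cadherin (1.54 to 2.04 times the FPKM of Dsg2 within a library). For scale, the adherens junction genes Ctnnb1 and Cdh1 had 245 and 16.8 FPKM, and the epithelial surface gene Epcam 124.

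Neighbours in this order were compared by the difference in log2(FPKM + 0.01) within each library, with an exact two-sided sign-flip permutation test over 8 libraries, whose smallest possible p is 0.00781. There were 9 pairs, adjusted by Benjamini-Hochberg. The pairs and their direction were set by the mean levels in these same 8 libraries. The p-values therefore describe how steady each order was between libraries and are no independent test of it. Each level also rests on 1 exon length per gene. In 7 pairs the higher gene was higher in 8 of 8 libraries (exact permutation p = 0.00781, adjusted p = 0.01 each), with mean differences from 0.25 (Pkp2 over Dsg2) to 3.57 (Dsc3 over Pkp1). The last of these rests on the few Pkp1 counts and was 1.95 with 0.1 in place of 0.01. Pkp3 and Pkp2 did not differ beyond their spread (0.11 ± 0.26, SD, n = 8, higher in 7 of 8 libraries, exact permutation p = 0.281). Control 3 was the 1 library with Pkp3 below Pkp2. Without it the difference was 0.20 (exact permutation adjusted p = 0.0176). The other 7 libraries all had Pkp3 higher, which fixes p at its smallest value for 7 libraries (0.0156), so nothing more is read from it. Dsg2 exceeded Dsc2 by 0.31 ± 0.21 (exact permutation adjusted p = 0.0264). That call was lost on leaving out control 1, 4 or 6, cKO 2 or cKO 5 in turn (0.28 to 0.30, exact permutation adjusted p = 0.0527 each). Leaving out a library also raises the smallest possible p to 0.0156, so the loss is not read as dependence on those libraries.

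**Figure D2:**
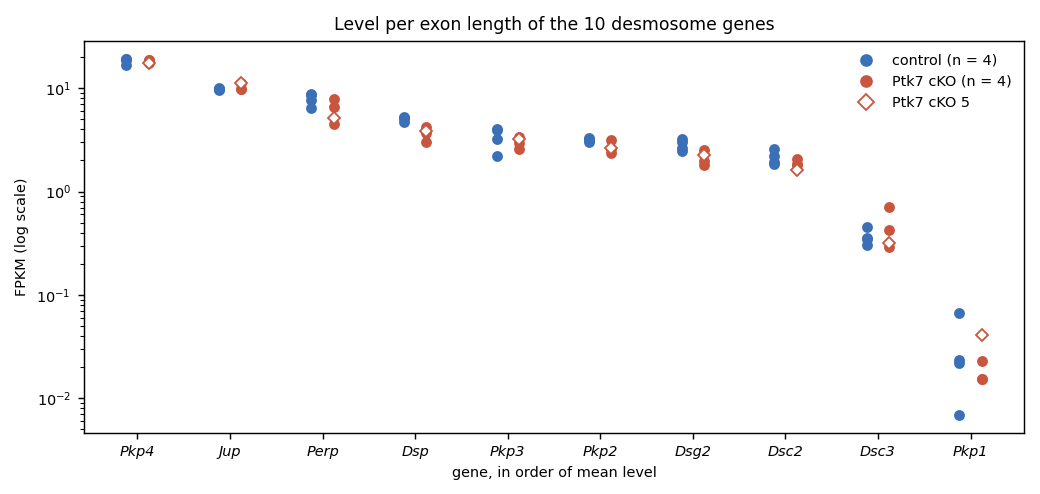
FPKM (log axis) of the 10 desmosome genes in order of mean level; points are control (blue) and Ptk7 cKO (red; open diamond, cKO 5) libraries. Pkp4 and Jup lead at means of 18.3 and 10.2 FPKM, Pkp3 to Dsc2 lie close together, and Pkp1 rests on 1 to 10 counts per library.

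Across the whole table, edgeR's quasi-likelihood test with Benjamini-Hochberg adjustment called 0 of 16469 genes (0.0%) between cKO and control at 0.05, and none of the 9 members tested (adjusted p from 0.206 for Dsp to 0.912 for Pkp4). The unadjusted p was under 0.05 for 1379 genes (8.37%). DESeq2 called 186 genes and limma voom 0. Lower at an unadjusted p under 0.05 were 3 members (Dsp, Dsg2 and Pkp2), against 4.87% of all genes, and 0 were higher, against 3.5%. Without cKO 5 there were 2 lower (Dsp and Dsg2), against 5.0% of genes, and without control 3 there were 4, with Pkp3 added, against 3.92%. Of the 9 members 7 had a log2 fold change below 0, as did 48.6% of all genes, and their median was -0.23 (all genes 0.006). Dsp was the 1 member whose groups did not overlap, against 3.11% of genes that were lower and 2.65% that were higher without overlap. Since the genes were gathered with this contrast known, nothing is read from these counts.

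**Figure D3:**
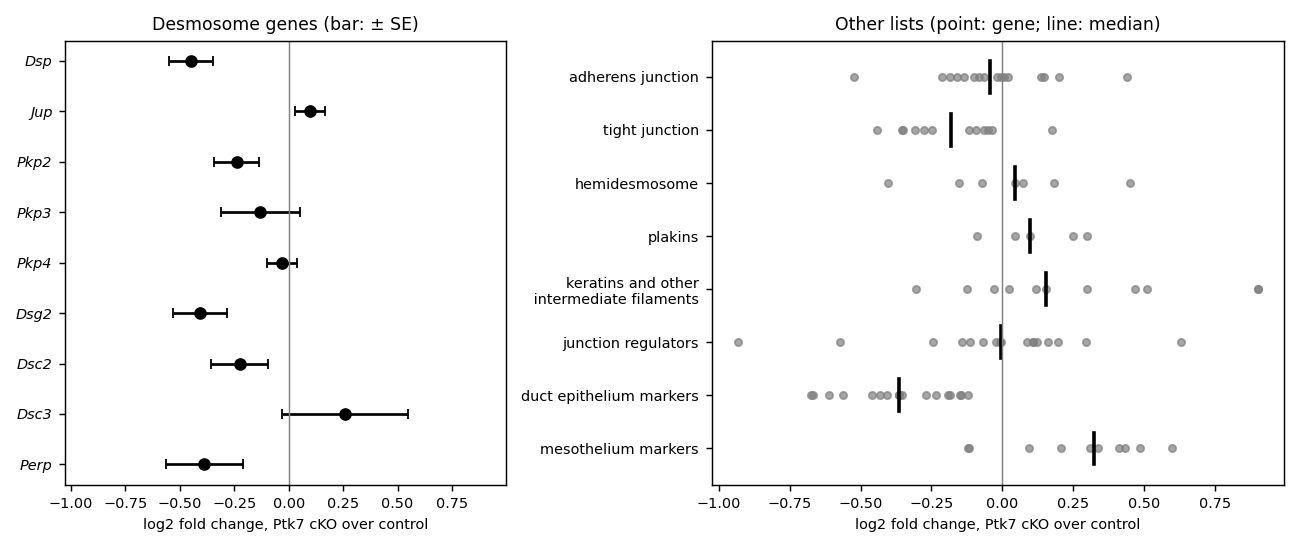
Log2 fold change of Ptk7 cKO over control from edgeR for the 9 tested desmosome genes (left, ± SE) and for genes of 8 other lists (right, grey points, black line at the median). Dsp, Dsg2 and Perp lie lowest among the members (-0.45, -0.41 and -0.39), Jup and Dsc3 lie above 0, and the duct epithelium markers have a median of -0.36.

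Among libraries, cKO 5 was outside the control range for 6 of the 9 tested members (Dsp, Pkp2, Dsg2, Dsc2 and Perp below it, Jup above it), against 42.9% of all genes tested. It was so for 5 members in cKO 4 (47.4% of genes), 4 in cKO 1 (44.4%) and 3 in cKO 2 (41.8%), so nothing particular to the members is read from these counts. Of the libraries, cKO 4 held the lowest value of 3 members (Dsp, Pkp2 and Perp), and control 1 the highest of 5. Likeness to Dsp was measured as the mean absolute difference in log2 CPM over the 8 libraries, each gene centred on its own mean. This measure includes the difference between the groups by which Dsp was chosen, so genes lower in cKO tend to rank close to it. The ranks of members are therefore a description as well. Dsg2 (0.116) and Pkp2 (0.107) were closest among the members and ranked 110 and 78 of 12151 genes with a mean of at least 5 CPM, whose median difference was 0.246. Jup was at 0.276, Pkp4 at 0.214, Pkp3 at 0.215, Perp at 0.198, Dsc2 at 0.188 and Dsc3 at 0.436. The 5 closest genes were Myo6 (0.0363), an unconventional myosin, Egfl6 (0.0526), a secreted EGF-repeat protein, Rnf43 (0.0622), a ubiquitin ligase that removes WNT receptors, Samd10 (0.0637) and Itgb4 (0.0673), the integrin beta subunit of hemidesmosomes. For Myo6 the level was 157 to 185 CPM in control and 103 to 139 in cKO, with the lowest value in cKO 4 as for Dsp. These genes were picked for this pattern, so their difference between groups is part of the choice.

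**Figure D4:**
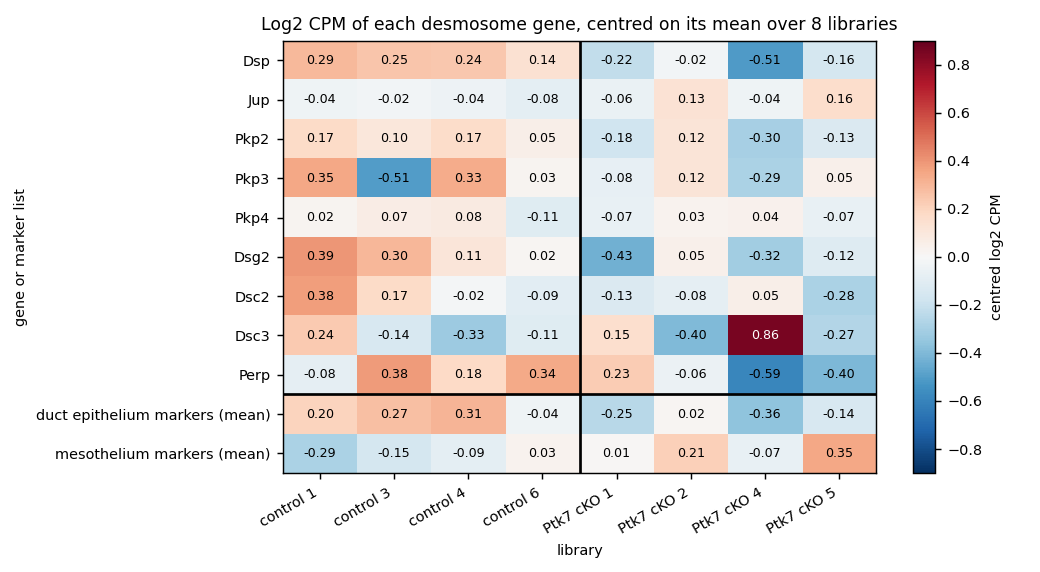
Log2 CPM of the 9 tested desmosome genes (rows) in each library (columns), centred on each gene's mean, with the mean of the duct epithelium and mesothelium marker lists below the line. Dsp runs from 0.29 in control 1 to -0.51 in cKO 4, and Dsc3 in cKO 4 (0.86) is the highest value of the panel.

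The partners of the desmosome are given next from fixed lists. In none of these lists did a gene pass edgeR's adjusted p of 0.05. Over all genes 4.87% were lower and 3.5% higher at an unadjusted p under 0.05, and without cKO 5 these shares were 5.0% and 3.74%. The lists were chosen with earlier results of these data known, so their counts are a description. Of 5 plakins found, the relatives of desmoplakin, 0 were lower and 0 higher at an unadjusted p under 0.05. Their median log2 fold change was 0.10. Macf1, which links actin and microtubules and was the most abundant of them in CPM, had -0.09 (SE 0.11). Dst, which ties keratin to hemidesmosomes in one of its forms, had 0.30 (SE 0.20). Of 11 tested intermediate filament genes 0 were lower and 4 higher, with a median of 0.15. Krt17, a keratin of basal and stressed epithelia, had 5.61 ± 1.65 CPM in control and 10.5 ± 4.23 in cKO (SD, n = 4 each; log2 fold change 0.90, SE 0.30, edgeR adjusted p = 0.418), and its groups overlapped. Vim, the mesenchymal filament, had 0.15 (SE 0.07).

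The 7 hemidesmosome genes went both ways, with 3 log2 fold changes below 0, 4 above and a median of 0.04. Without cKO 5, 4 were below 0 and 3 above (median -0.16). Itgb4, 1 of those below 0, had an unadjusted p under 0.05. It had 6.91 ± 0.49 CPM in control and 5.21 ± 0.86 in cKO (SD, n = 4 each). Its log2 fold change was -0.41 (SE 0.15, edgeR adjusted p = 0.478). Cd151, a tetraspanin and the most abundant of the list, had 0.07 (SE 0.09). Of 16 adherens junction genes 1 was lower and 0 higher, and the median was -0.04. Cdh1, or E-cadherin, had a log2 fold change of -0.52 (SE 0.14, edgeR adjusted p = 0.295), and Ctnnb1, or beta-catenin, the closest relative of Jup in the list, -0.02 (SE 0.07).

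Of these partner lists, the tight junction genes had the median nearest to that of the desmosome genes, -0.18, with 11 of 12 below 0 and 4 lower at an unadjusted p under 0.05. Ocln, or occludin, had 41.3 ± 3.54 CPM in control and 30.4 ± 3.87 in cKO (SD, n = 4 each; log2 fold change -0.44, SE 0.10, edgeR adjusted p = 0.217). Tjp1, the scaffold ZO-1, had -0.12 (SE 0.11). Of 17 tested regulators of epithelial junctions 2 were lower and 0 higher, with a median near 0. Grhl2, a transcription factor of epithelial junction genes, had 22.0 ± 4.08 CPM in control and 14.8 ± 2.74 in cKO (SD, n = 4 each; log2 fold change -0.57, SE 0.16, edgeR adjusted p = 0.305). Zeb1, a repressor of epithelial genes, had 100 ± 5.30 and 100 ± 8.5 CPM. Without cKO 5 the counts lower and higher at an unadjusted p under 0.05 were 0 and 0 for plakins (median 0.04), 0 and 4 for intermediate filaments (0.15), 2 and 0 for adherens junctions (-0.09), 3 and 0 for tight junctions (-0.25) and 2 and 0 for the regulators (0.03).

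Duct epithelium and mesothelium, the cell types here that carry desmosomes, were followed by marker lists, in which no gene passed edgeR's adjusted p of 0.05 (smallest adjusted p = 0.161). These lists too were chosen with earlier results of these data known, so their counts are a description. All 18 duct epithelium markers were detected and tested, and 18 had a log2 fold change below 0 (median -0.36), against 48.6% of all genes. At an unadjusted p under 0.05, 11 were lower, against 4.87% of all genes (5.0% without cKO 5). The summed level of the duct markers was 921 to 1090 CPM in control and 748 to 1010 in cKO. Epcam, the most abundant, had -0.18 (SE 0.11), and Ros1, an epididymal receptor kinase, -0.67 (SE 0.12). The mean of the centred marker values was 0.20, 0.27, 0.31 and -0.04 in controls 1, 3, 4 and 6, and -0.25, 0.02, -0.36 and -0.14 in cKO 1, 2, 4 and 5. The groups overlapped both in this mean, with control 6 below cKO 2, and in the summed level. Its lowest library was cKO 4 and the highest cKO library was cKO 2, as for Dsp. Of 10 mesothelium markers found, none at 0, 8 were above 0 (median 0.32). At an unadjusted p under 0.05, 5 were higher, against 3.5% of all genes (3.74% without cKO 5). Summed levels of the mesothelium markers were 561 to 681 CPM in control and 717 to 888 in cKO. The summed levels did not overlap, but the mean of the centred values did, with control 6 (0.03) above cKO 1 (0.01) and cKO 4 (-0.07). Myrf, a mesothelial transcription factor with the smallest p of the list, had 0.60 (SE 0.09), and Upk3b, the most abundant, 0.31 (SE 0.12). Without cKO 5, 18 of 18 duct markers were below 0 and 9 lower (median -0.38), and 8 of 10 mesothelium markers were above 0 and 5 higher (median 0.27). The part of either cell type in the desmosome values was not tested. In bulk ducts, fewer cells of a type and less RNA per cell cannot be told apart.

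Summed levels of the remaining marker lists were 3490 to 4210 CPM in control against 2710 to 3480 in cKO for smooth muscle, 15800 to 20700 against 17500 to 23000 for mesenchyme, 411 to 459 against 373 to 507 for endothelium, 159 to 260 against 212 to 304 for macrophages and 794 to 2270 against 1360 to 3960 for erythroid cells. They were 69.8 to 87.6 against 76.3 to 120 for neurons and Schwann cells, 26.7 to 38.4 against 38.4 to 43.4 for multiciliated cells and 3.20 to 3.56 against 3.24 to 3.99 for testis and adrenal cells. Without cKO 5 the highest cKO sum was 1530 CPM for erythroid cells, 252 for macrophages and 19500 for mesenchyme. None of the genes found in these lists was at 0 in all libraries, and their part in the desmosome values was not tested.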

How the data were processed

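Total RNA of 8 libraries was sequenced after column extraction and TruSeq library preparation, per the labels' protocols. The authors deposited raw counts per gene and the summed exon length, on GRCm38, and the submitters' processing notes name STAR and featureCounts. Their versions, the strand setting and the rule for reads with several matches were not given in these sources, so a read from a gene and one from its antisense partner may be confused. Symbols were matched by identifier for 46005 of 46517 genes.

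The test was edgeR 4.0.16 in R 4.3.3 (filterByExpr, TMM factors, quasi-likelihood F test, group as the single term, Benjamini-Hochberg at 0.05). The SE is the log2 fold change divided by the square root of F. CPM and FPKM are scaled by the TMM factors. Counting error is small beside the common biological coefficient of variation over all genes (15.2%) except for Pkp1 and Dsc3. Among controls the coefficients of variation of Jup, Pkp2 and Dsp were lower (1.86%, 3.96% and 4.53%), and counting error is not small beside these. Alternatives were DESeq2 1.42.0, limma 3.58.1 voom, other factors, no filter, a block on library number and leaving out each library. In counts simulated for this comparison (16297 genes run) edgeR recovered 2 of 50 genes changed 1.25-fold, 22 of 50 changed 1.5-fold, 46 of 50 changed 2-fold and 49 of 50 changed 4-fold, and 11 unchanged genes were called. The members and lists were chosen with earlier results of these data known. Eppk1, Muc16 and Ahsp were not matched and not analysed here. Named were the members, Ptk7, the most abundant gene by CPM and the gene of smallest p in each pathway list and in the epithelium and mesothelium lists, and the 5 genes most like Dsp. For the other marker lists summed levels alone are printed, and the result of 1 gene that the rule names is not reported here. Promoter windows are from RefSeq (3 members matched). Figures used matplotlib 3.10.9.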

Additional observations from a re-analysis of the deposited data

Results flagged for a closer look

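Of 22 groups of 4 libraries examined (10 desmosome genes and Ptk7, in control and cKO), 1 held a library far from the others. Ptk7 in the library labelled Ptk7 cKO 5 was 194 CPM, against 7.32 to 12.5 CPM in the other 3, and the gap to the nearest of them was 0.972 of the group's range. By chance about 1 group in 20 would be marked. No desmosome gene was marked in either group.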

How the results depend on the processing

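The count of genes called by edgeR over the whole table was 0. It was 1 with no filter on low counts, 186 with DESeq2, and 0 to 2 on leaving out each library in turn (2 when control 1 was left out and 1 when cKO 5 was). DESeq2 was the 1 setting that called a member, Dsp (log2 fold change -0.45, adjusted p = 0.0137; 0.0137 to 0.471 over all settings). Members lower at an unadjusted p under 0.05 numbered 2 to 4 in all settings, against 3.59% to 5.91% of all genes. In no setting was a member higher, against 2.72% to 4.24% of all genes. The members counted were not the same throughout. Without control 1, without cKO 1 and with no filter, Perp was among them and Pkp2 was not. Of 135 member fold changes under other settings 3 changed sign: Jup (-0.0082 in each of the 2 fits on libraries 1 and 4 of each group) and Dsc3 (-0.079 without cKO 4, and up to 0.41 on leaving out another library). The cause was not tested. The level difference of Dsg2 over Dsc2 was 0.28 to 0.36, and that of Pkp3 over Pkp2 0.085 to 0.20, on leaving out each library. No level difference changed sign. Only the numbers 1 and 4 occur in both groups. The deviations of same-numbered libraries correlated at -0.0916 (number 1) and 0.0226 (number 4) across genes, so the numbers were not taken as pairs. The fit with the replicate block on those 4 libraries called 7 genes, and the fit on the same 4 without the block, added after seeing the data, called 4. No member was called in either. Depth limits Pkp1, with 1 to 10 counts per library.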
